A study of Mus musculus with 4 samples.

Results

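Counts of 8 genes of insulin signalling and its FOXO branch were followed in group 2 innate lymphoid cells (ILC2) of the pancreatic islets. The genes were the insulin receptor Insr, the IGF1 receptor Igf1r, the adaptor Irs2, the PI3K inhibitor Pik3ip1, the transcription factors Foxo1 and Foxo3, and the sestrins Sesn1 and Sesn3. They were taken from the table by symbol, in a list written with earlier results of these data known, and all 8 were among the 15835 genes of the count table. ILC2 are tissue-resident lymphocytes without antigen receptors that secrete type 2 cytokines. The samples were ILC2 from Langerhans islets of C57BL/6j mice that were fasted (4 libraries, numbered 1, 3, 4 and 5) or fed (4 libraries with the same numbers, named control in the table). The length of the fast and the sex and age of the mice are not given in the sources used here. Libraries were made by CEL-seq2, a method that counts polyadenylated RNA near its 3′ end.

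Insulin and IGF1 bind receptor tyrosine kinases that phosphorylate IRS adaptors. These recruit PI3-kinase, whose lipid product activates the kinase AKT, and AKT phosphorylates FOXO factors, which then leave the nucleus. When insulin is low, FOXO factors are nuclear, and in liver and muscle they are known to raise transcription of Irs2, of Insr and of genes of autophagy and catabolism. In lymphocytes Foxo1 is best known for driving the IL-7 receptor and homing receptors. Which of these genes differ in RNA level between fasted and fed ILC2 is the question of the comparison.

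Library totals were 2041697 to 9366807 counts in fasted and 1797504 to 25252366 counts in fed libraries. The ILC2 transcription factor Gata3 was detected in every library, at 180 to 254 CPM in fasted and 170 to 346 CPM in fed libraries, and the interleukin-7 receptor gene Il7r at 54.3 to 70.2 CPM in fasted and 31.5 to 52.8 CPM in fed libraries. CPM scale counts to a common library size, corrected by TMM, a factor that allows for differences in RNA composition. The 16 genes of an ILC2 marker list took 0.151% to 0.645% of counts in fasted and 0.122% to 0.425% in fed libraries. Transcripts of acinar cells, the exocrine cells around the islets, were abundant, and of the 20 acinar markers in the table none was at 0 in every library. Together they took 2.92% and 3.25% of counts in fasted libraries 1 and 3, 66.5% and 68.3% in fasted libraries 4 and 5, and 41.2% to 70.8% in fed libraries. On the TMM scale the acinar carboxypeptidase Cpa1 ran from 2453 to 228523 CPM in fasted and from 56253 to 261004 CPM in fed libraries. Fasted libraries 1 and 3 thus stand apart, and fold changes of members and lists are also given without them. T cell markers, 7 of 11 matched, took 0.00453% to 0.0170% of counts in fasted and 0.00217% to 0.00556% in fed libraries. All marker shares are of library totals and are not TMM-scaled, so they also depend on how many counts acinar transcripts took. TMM factors were 2.11, 2.03, 0.695 and 0.565 in fasted libraries 1, 3, 4 and 5. In the fed libraries of the same numbers they were 1.25, 1.27, 0.538 and 0.698. The part of T cell RNA in the levels of the members was not tested. Myeloid markers, 12 of 14 matched, took 0.0194% of counts in fasted library 1, 0.00232% in fasted library 3, 0.000331% to 0.000383% in fasted libraries 4 and 5 and 0.000218% to 0.00167% in fed libraries. B cell markers, 6 of 9 matched, took 0.000497% to 0.000843% in fasted and 8.54e-05% to 0.000556% in fed libraries, and ductal, stromal and endothelial markers 0.00171% to 0.0186% in fasted and 0.0112% to 0.0244% in fed libraries. Islet endocrine markers, 12 of 17 matched, took 0.000833% to 0.00632% of counts in fasted and 0.00441% to 0.0107% in fed libraries.

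No member passed the test between fasted and fed ILC2. In edgeR's quasi-likelihood test with Benjamini-Hochberg adjustment, 0 of the 5 members with enough counts to be tested, Igf1r, Irs2, Pik3ip1, Foxo1 and Sesn1, had an adjusted p under 0.05, and 0.00% of all 7700 genes tested had one. At an unadjusted p under 0.05 there were 338 of the 7700 genes, where a share of 0.05 is expected if no gene differs. DESeq2 called 12 genes higher and 5 lower in fasted libraries, limma-voom called 0, and neither called a member. Irs2 was the 1 member with an unadjusted p under 0.05, higher in fasted libraries, where 2.77% of all tested genes had such a p in that direction. The groups of libraries overlapped for all 8 members, and did not overlap for 3.52% of the genes tested. The log2 fold change (fasted minus fed) was positive for all 5 tested members, with a median of 0.60, given as a description beside 49.8% positive and a median of -0.00 over all tested genes. Intervals are edgeR's, on the log2 scale. Insr, Foxo3 and Sesn3 had too few counts to enter that test. In bulk libraries such as these, fewer cells of a type and less RNA per cell cannot be told apart.

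**Figure D1:**
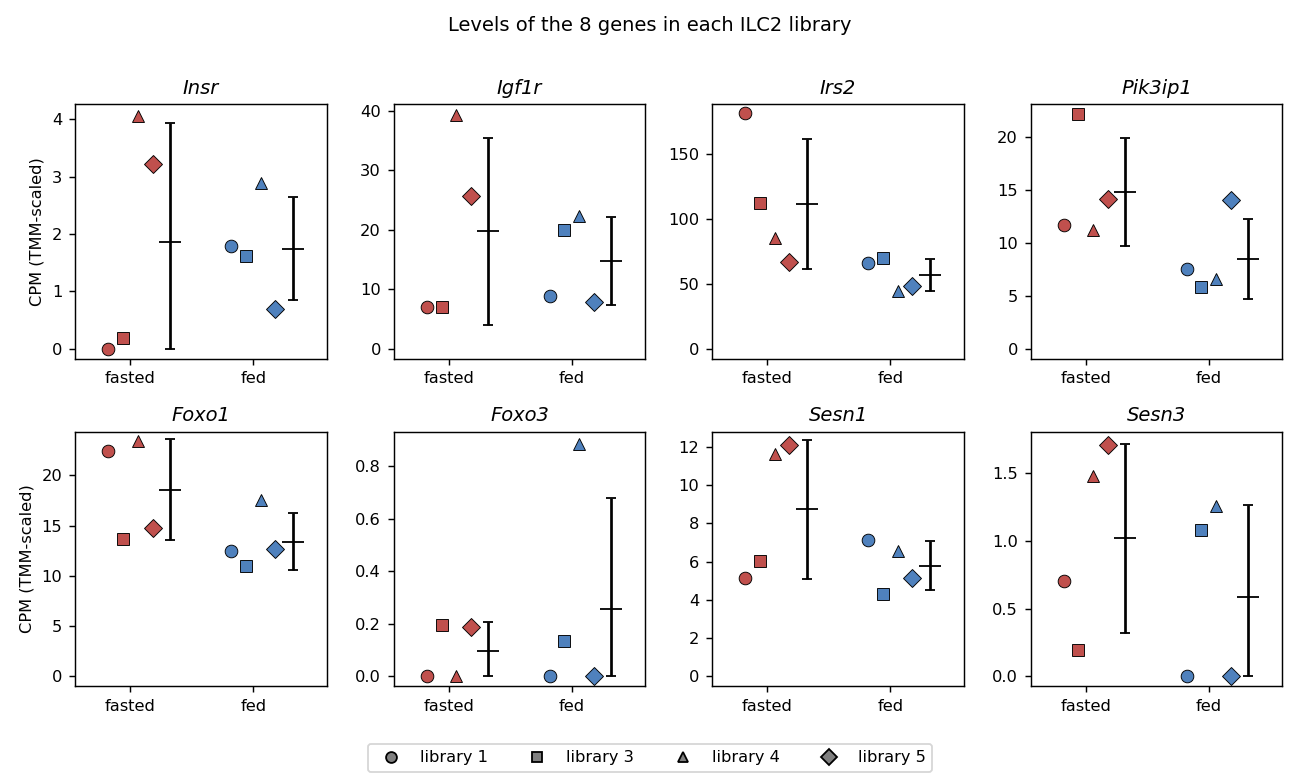
Levels of the 8 members in CPM on TMM-scaled library sizes (vertical axis, a separate scale for each gene), with fasted libraries left of fed ones in each panel. Each marker is 1 library, its shape gives the library number, and the bar is the mean ± SD of the 4 libraries, with no bar drawn below 0. For Irs2, 3 of the 4 fasted libraries lie above 69.4 CPM, the highest fed value, and the groups overlap in every panel.

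The receptor genes, Insr (chr8:3122061-3279617, minus strand of mm10) and Igf1r (chr7:67952827-68233668, plus strand), were split by library within the fasted group. Insr had 0, 1, 22 and 17 counts in fasted libraries 1, 3, 4 and 5, against 4, 12, 39 and 2 counts in fed libraries 1, 3, 4 and 5. This was 0, 0.20, 4.06 and 3.22 CPM in fasted libraries and 1.78, 1.62, 2.88 and 0.69 CPM in fed libraries. The 2 fasted libraries poor in acinar RNA therefore held 1 Insr count in 4588617, while fasted libraries 4 and 5 held more Insr by CPM than any fed library. In fasted library 1 the count of 0 allows up to 0.702 CPM, which is 3 counts and covers counting error only. The means were 1.87 ± 2.07 CPM in fasted and 1.74 ± 0.90 CPM in fed libraries (SD, n = 4 each), while the difference in mean log2(CPM + 1) was -0.23 (exact two-sided permutation over 70 assignments, p = 0.77, n = 4 per group). With no filter on low counts the log2 fold change was 0.07 ± 1.09 (edgeR with Benjamini-Hochberg, adjusted p = 1.00), so the sign differed between the scales and the direction was not determined. On the log2(CPM + 1) scale the difference was 0.81 without fasted libraries 1 and 3.

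Igf1r, whose product binds IGF1 and can pair with the insulin receptor, had 7.02, 7.03, 39.3 and 25.6 CPM in fasted libraries 1, 3, 4 and 5, against 8.92, 19.9, 22.3 and 7.88 CPM in the fed libraries of the same numbers. For Insr the low end of the order rests on 0 and 1 counts in fasted libraries 1 and 3 and 2 counts in fed library 5. That count of 0 allows up to 0.702 CPM, above the 0.685 CPM of fed library 5. For Igf1r, and for Insr by measured CPM only, the acinar-poor fasted libraries were below every fed library. The acinar-rich ones were above every fed library. The means were 19.7 ± 15.7 CPM in fasted and 14.8 ± 7.41 CPM in fed libraries (SD, n = 4 each), and the log2 fold change was 0.39 ± 0.59 (SE; 95% interval -0.91 to 1.70; edgeR with Benjamini-Hochberg, adjusted p = 1.00). The interval spans 0 widely, and the direction was not determined. The fold change was -0.20 without fasted library 4 and 1.11 ± 0.47 without fasted libraries 1 and 3 (edgeR with Benjamini-Hochberg, adjusted p = 1.00), and -0.32 by limma-voom. Among the fasted libraries, Insr and Igf1r were low where acinar markers took 2.92% and 3.25% of counts and high where they took 66.5% and 68.3%. Fed library 5, with 63.5% acinar marker counts, had the lowest fed level of both receptors. With the acinar share as a covariate the log2 fold change of Igf1r was 0.96 ± 0.43 (edgeR, unadjusted p = 0.044, Benjamini-Hochberg adjusted p = 0.999). The part of acinar RNA in the receptor levels was not tested beyond these values.

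**Figure D2:**
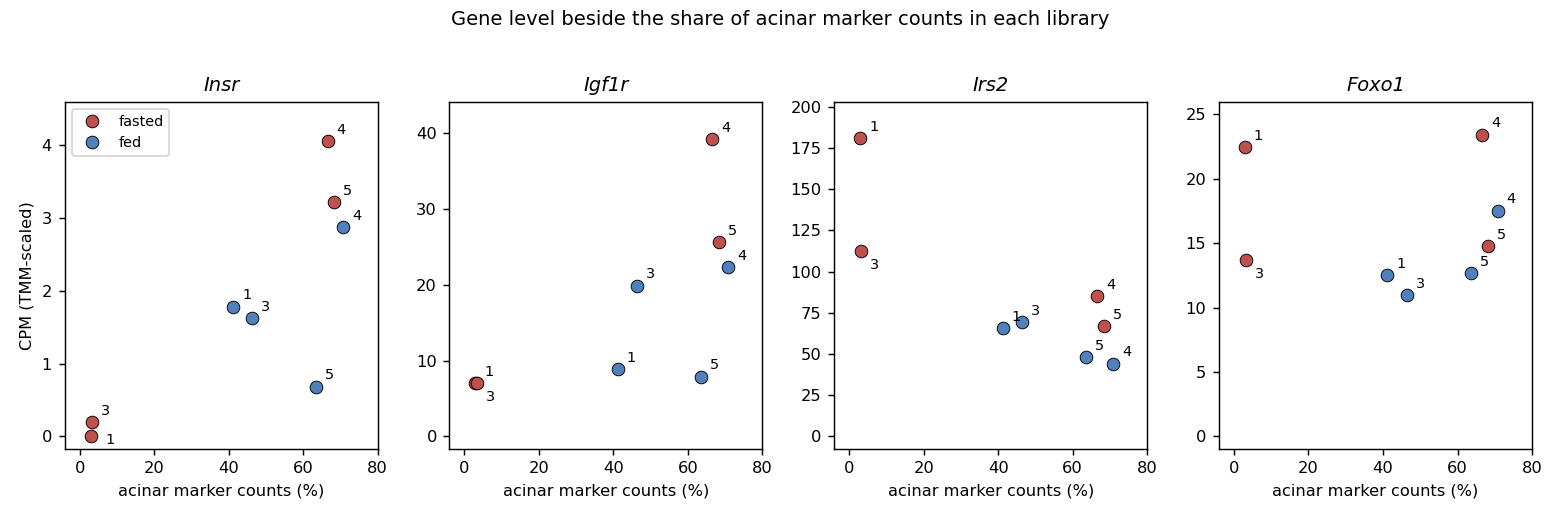
Level of Insr, Igf1r, Irs2 and Foxo1 (CPM on TMM-scaled sizes, vertical axis) beside the share of counts from acinar markers (percent, horizontal axis). Each point is 1 library, fasted in red and fed in blue, with its number. Fasted libraries 1 and 3, at 2.92% and 3.25% acinar counts, have the lowest Insr values and the highest Irs2 values.

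Irs2 encodes the adaptor that links the active insulin and IGF1 receptors to PI3-kinase. It is a textbook FOXO target in liver, which is why its promoter is printed here. In mm10 the GENCODE vM21 gene lies on the minus strand at chr8:10984681-11008458. The RefSeq start lies upstream of that. The 250 bases before the RefSeq start, chr8:11008930-11009179 on the minus strand (RefSeq, GRCm38.p6, the same build), are written 5′ to 3′, with a CACGTG E-box and the letters TGTTTTG, the opposite strand of CAAAACA, in capitals.
Irs2 promoter: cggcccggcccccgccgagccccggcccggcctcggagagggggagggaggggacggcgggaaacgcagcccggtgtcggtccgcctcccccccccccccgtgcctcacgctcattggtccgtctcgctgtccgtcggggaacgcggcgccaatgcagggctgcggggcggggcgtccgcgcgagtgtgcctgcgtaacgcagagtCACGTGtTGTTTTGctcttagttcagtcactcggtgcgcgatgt
CAAAACA is the core of the insulin response element. It lies 37 to 31 bases before the start, at chr8:11008960-11008966, and the E-box 44 to 39 bases before it, at chr8:11008968-11008973. Of 32544 RefSeq windows of 300 bases (250 before and 50 from the start), 6.321% held CAAAACA on either strand and 7.166% held CACGTG, so each is common. A match of letters is a description of the window and does not show a bound site.

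Irs2 had 181, 112, 85.2 and 66.9 CPM in fasted libraries 1, 3, 4 and 5, against 65.6, 69.4, 44.1 and 48.0 CPM in fed libraries 1, 3, 4 and 5. The lowest fasted library, number 5, was below fed library 3, and the other 3 fasted libraries were above all fed ones. Within each same-numbered pair the fasted library was the higher, by 0.47 to 1.45 on the log2(CPM + 1) scale. The means were 111 ± 50.1 CPM in fasted and 56.8 ± 12.6 CPM in fed libraries (SD, n = 4 each), and the log2 fold change was 0.97 ± 0.32 (SE; 95% interval 0.27 to 1.67; edgeR, unadjusted p = 0.011, Benjamini-Hochberg adjusted p = 0.87). It ranked 96 of 7700 by p, and the exact two-sided permutation p on log2(CPM + 1) was 0.057 (n = 4 per group).

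The size of the Irs2 difference depended on fasted libraries 1 and 3. These averaged 147 CPM, and fasted libraries 4 and 5 averaged 76.0 CPM, against 56.8 CPM over the fed libraries. Without fasted libraries 1 and 3 the log2 fold change was 0.42 ± 0.33, and with the acinar share as a covariate it was 0.47 ± 0.27 (edgeR with Benjamini-Hochberg, adjusted p = 1.00 for each). Library sizes from the ILC2 markers alone gave 1.01 ± 0.30 (edgeR with Benjamini-Hochberg, adjusted p = 0.90). Fasted library 1 has the highest Irs2 level and also the highest myeloid marker share (0.0194% of counts) and T cell marker share (0.0170%). The T cell share was 0.0141% in fasted library 3. These are shares of library totals and are not on the TMM scale of the Irs2 level. Without fasted library 1 the log2 fold change of Irs2 was 0.64. Its sign stayed positive in every alternative run. The part of the acinar share in the Irs2 difference was not tested beyond these values, and that of myeloid and T cell RNA was not tested.

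Pik3ip1 encodes a membrane protein that restrains PI3-kinase and that lymphocytes express at rest (chr11:3330401-3342971, plus strand). It had 11.7, 22.2, 11.2 and 14.2 CPM in fasted libraries 1, 3, 4 and 5, against 7.58, 5.82, 6.58 and 14.0 CPM in fed libraries 1, 3, 4 and 5. The overlap came from fed library 5, which was above fasted libraries 1 and 4, while the other 3 fed libraries were below all fasted ones. Means were 14.9 ± 5.10 CPM in fasted and 8.51 ± 3.76 CPM in fed libraries (SD, n = 4 each), and the log2 fold change was 0.82 ± 0.40 (SE; 95% interval -0.05 to 1.69; edgeR with Benjamini-Hochberg, adjusted p = 1.00). Leaving out fasted libraries 1 and 3 gave 0.59 ± 0.51 (edgeR with Benjamini-Hochberg, adjusted p = 1.00). With a library left out it ran between 0.55 and 1.17.

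Of the FOXO factor genes, Foxo1 (chr3:52268336-52353221, plus strand) was the member with enough counts to test. It had 22.5, 13.7, 23.4 and 14.8 CPM in fasted libraries 1, 3, 4 and 5, against 12.5, 11.0, 17.5 and 12.7 CPM in fed libraries 1, 3, 4 and 5. Fasted libraries 3 and 5 lay below fed library 4, and within each same-numbered pair the fasted library was the higher, by 0.21 to 0.80 on the log2(CPM + 1) scale. Means were 18.6 ± 5.07 CPM in fasted and 13.4 ± 2.84 CPM in fed libraries (SD, n = 4 each), and the log2 fold change was 0.46 ± 0.31 (SE; 95% interval -0.22 to 1.14; edgeR with Benjamini-Hochberg, adjusted p = 1.00). Fasted libraries 1 and 3, poor in acinar RNA, averaged 18.1 CPM, and fasted libraries 4 and 5 averaged 19.1 CPM. The log2 fold change without fasted libraries 1 and 3 was 0.51 ± 0.40 (edgeR with Benjamini-Hochberg, adjusted p = 1.00).

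Foxo3, a FOXO factor that in other lymphocytes promotes quiescence and cell death, was close to the detection limit (chr10:42181841-42276755, minus strand). It had 0, 1, 0 and 1 counts in fasted libraries 1, 3, 4 and 5, against 0, 1, 12 and 0 counts in fed libraries 1, 3, 4 and 5. Fed library 4, the deepest, thus held 12 of the 13 fed counts, where it stood at 0.887 CPM. A count of 0 allows up to 0.702 and 0.553 CPM in fasted libraries 1 and 4, and up to 1.34 and 1.03 CPM in fed libraries 1 and 5. The difference in mean log2(CPM + 1) was -0.15 (exact two-sided permutation, p = 0.89, n = 4 per group), and a difference was not detectable at this depth. It was also -0.15 without fasted libraries 1 and 3. The related genes Foxo4 and Foxo6, which are no members, had 87 and 0 counts over the fasted libraries and 118 and 4 counts over the fed ones. The log2 fold change of Foxo4 was 0.28 ± 0.52 (edgeR with Benjamini-Hochberg, adjusted p = 1.00).

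Sestrins bind the GATOR2 complex or AMPK and restrain mTORC1, and Sesn1 (chr10:41809935-41908424, plus strand) and Sesn3 (chr9:14275067-14333101, plus strand) are known FOXO targets. Sesn1 had 5.15, 6.05, 11.6 and 12.1 CPM in fasted libraries 1, 3, 4 and 5, against 7.14, 4.33, 6.58 and 5.14 CPM in fed libraries 1, 3, 4 and 5. Fasted libraries 4 and 5 were above every fed library, and fasted libraries 1 and 3 lay within the fed range. Means were 8.74 ± 3.65 CPM in fasted and 5.80 ± 1.29 CPM in fed libraries (SD, n = 4 each), and the log2 fold change was 0.60 ± 0.43 (SE; 95% interval -0.34 to 1.54; edgeR with Benjamini-Hochberg, adjusted p = 1.00). Without fasted libraries 1 and 3 it was 1.04 ± 0.48, and with the acinar share as a covariate 0.96 ± 0.44 (edgeR with Benjamini-Hochberg, adjusted p = 1.00 for each). The part of the acinar share in it was not tested beyond these values.

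The FOXO and DAF-16 binding element GTAAACA was found in 1 of the 8 RefSeq windows of the members, a Sesn1 window, on the opposite strand. Windows were given for 7 of the 8 members, with 2 for Sesn1. The match lies 23 to 29 bases past the start at chr10:41810596-41810602 (GRCm38.p6), on the plus strand gene, and is shown with 10 bases on either side, the element in capitals.
Sesn1 window: aaccttctacTGTTTACcagccttttg
GTAAACA occurred in 3.657% of all 32544 windows. Apart from this match and those in Irs2, none of the 3 motifs searched was in the members' windows, and that says only that these letters are not there.

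Sesn3 had 3, 1, 8 and 9 counts in fasted libraries 1, 3, 4 and 5, against 0, 8, 17 and 0 counts in fed libraries 1, 3, 4 and 5. Fed libraries 1 and 5, which are among the shallower ones, held none, which allows up to 1.34 and 1.03 CPM. Fasted libraries 4 and 5, at 1.47 and 1.71 CPM, were above the highest fed library, at 1.26 CPM. The difference in mean log2(CPM + 1) was 0.38 (exact two-sided permutation, p = 0.40, n = 4 per group). The difference was 0.81 without fasted libraries 1 and 3. The related Sesn2, no member, had 3 counts over the fasted and 16 counts over the fed libraries.

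**Figure D3:**
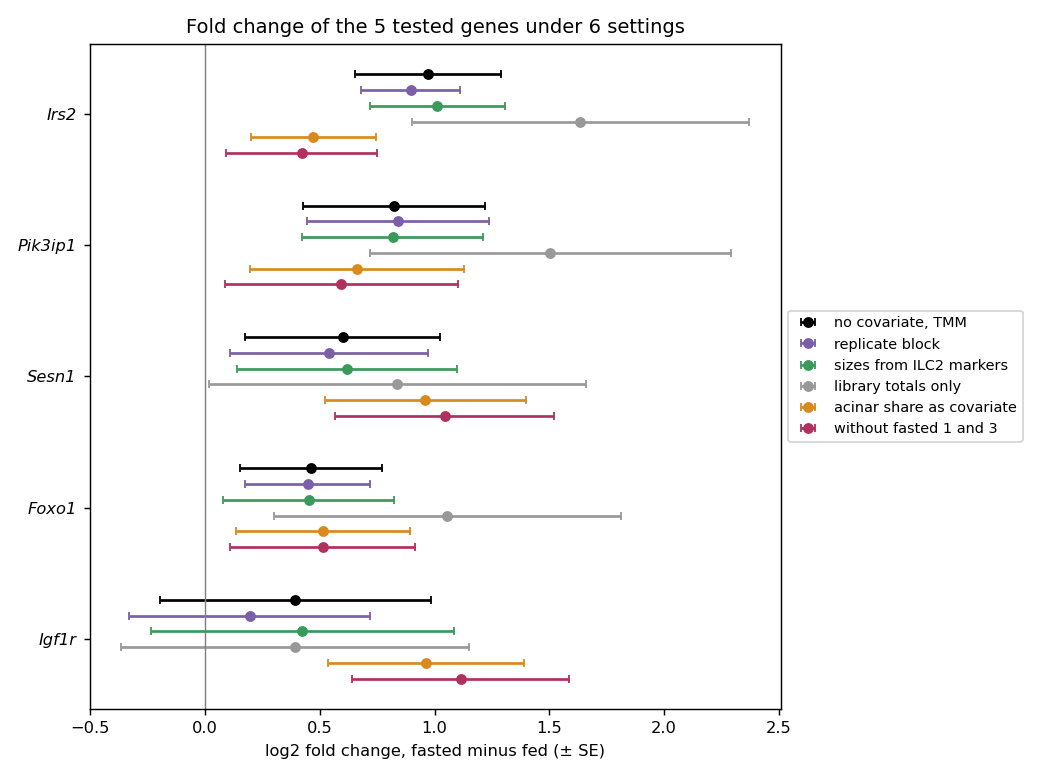
Log2 fold change (fasted minus fed, horizontal axis) ± SE of the 5 tested members in 6 settings, each setting in its own colour. Irs2, Pik3ip1, Foxo1 and Sesn1 stay to the right of 0 in all 6, Irs2 between 0.42 and 1.64, and the SE bars of Igf1r cross 0 in 4 of the 6.

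Ratios between related members were taken on counts without scaling of the libraries, with 0.5 added to each count. Where a count is near 0, such a ratio also depends on library depth. The log2 ratio of Insr over Igf1r counts averaged -4.18 ± 1.37 in fasted and -2.98 ± 0.59 in fed libraries (SD, n = 4 each), a difference of -1.20 (exact two-sided permutation, p = 0.17, adjusted over 3 ratios 0.43). Fasted library 1 held no Insr count, and without fasted libraries 1 and 3 the difference was -0.12. Foxo1 over Foxo3 averaged 6.71 ± 1.26 in fasted and 5.52 ± 0.87 in fed libraries, a difference of 1.19 (exact two-sided permutation, p = 0.29, adjusted p = 0.43). Sesn1 over Sesn3 averaged 3.19 ± 0.81 in fasted and 3.57 ± 1.66 in fed libraries, a difference of -0.39 (exact two-sided permutation, p = 0.77, adjusted p = 0.77). Foxo3 held 0 or 1 counts in every library but fed library 4, so Foxo1 over Foxo3 depends on depth. Sesn3 held 0 counts in fed libraries 1 and 5. There Sesn1 over Sesn3 was 5.04 and 4.95, against 1.93 and 2.35 in fed libraries 3 and 4. The last 2 differences were 1.33 and -0.74 without fasted libraries 1 and 3. None passed the threshold, and 4 libraries against 4 cannot give a p below 0.0286. These ratios are differences between groups, and they do not rank the levels of the genes in a pair.

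Across libraries the members paired in both directions. Pearson correlations of log2 CPM over the 8 libraries, given as a description of libraries that share depth and acinar share, ran between -0.36 for Igf1r with Pik3ip1 and 0.64 for Igf1r with Sesn1. Irs2 and Foxo1 had 0.46, and Igf1r and Irs2 -0.35. The genes whose pattern was most like that of Irs2 among the tested genes were the adaptor Nck2 (r = 0.97) and the histone deacetylase Hdac5 (r = 0.96). Such genes were picked for the highest r over 8 libraries among all tested genes. How high the highest r runs by chance was not computed. Nck2 had 49.6, 43.7, 38.0 and 28.1 CPM in fasted libraries 1, 3, 4 and 5, against 32.1, 32.6, 25.6 and 27.4 CPM in fed libraries 1, 3, 4 and 5. Like Irs2 it was highest in fasted libraries 1 and 3. Igf1r was most like the receptor phosphatase Ptprk (r = 0.97) and the Polycomb ubiquitin ligase Rnf2 (r = 0.97). Ptprk was at 0 in fasted libraries 1 and 3 and at 8.66 and 5.88 CPM in fasted libraries 4 and 5, against 0, 2.57, 8.50 and 0 CPM in fed libraries 1, 3, 4 and 5. Foxo1 was most like the growth factor Hbegf (r = 0.91) and Tmem186 (r = 0.91), and Sesn1 most like the secreted resistin-like gene Retnla (r = 0.94) and the protein modifier Sumo3 (r = 0.93). Hbegf, Tmem186 and Retnla were low, with no library above 8.30, 9.59 and 7.77 CPM. Pik3ip1 was most like Gimap6 (r = 0.97), a GTPase of lymphocytes, and the ribosomal protein gene Rpl27 (r = 0.97).

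The wider pathway was counted by lists from textbook knowledge, with 0 genes of any list past the adjusted threshold in edgeR. Of 21 tested FOXO target genes, 17 had a positive and 4 a negative log2 fold change, with a median of 0.41. Left without the members, 14 of 18 were positive with a median of 0.34, and 2 of the 18, Ulk1 and Map1lc3b, had an unadjusted p under 0.05, both higher in fasted libraries, beside 2.77% of all tested genes. With RLE size factors or library totals in place of TMM, 1 of the 18 had such a p, Ulk1, and the unadjusted edgeR p of Map1lc3b was 0.055 with RLE factors and 0.16 with library totals, against 0.048 with TMM. Without fasted libraries 1 and 3 the filter kept 28 listed genes, members included, of which 20 were positive with a median of 0.42. With the members taken out of these, 16 of 24 were positive with a median of 0.35. The highest ranked target that is no member was Ulk1, a kinase that starts autophagy. It had 55.7, 33.0, 61.0 and 44.4 CPM in fasted libraries 1, 3, 4 and 5, against 23.2, 21.4, 30.4 and 21.6 CPM in fed libraries 1, 3, 4 and 5. The groups did not overlap, and the log2 fold change was 1.00 ± 0.27 (SE; edgeR, unadjusted p = 0.0032, Benjamini-Hochberg adjusted p = 0.69). It was 1.13 ± 0.32 without fasted libraries 1 and 3. The interleukin-7 receptor gene Il7r had 54.3, 54.4, 70.2 and 63.7 CPM in fasted libraries 1, 3, 4 and 5, against 51.7, 52.8, 48.6 and 31.5 CPM in fed libraries 1, 3, 4 and 5. These groups did not overlap either, by a narrow margin, and the log2 fold change was 0.39 ± 0.24. Map1lc3b, which coats autophagosomes, averaged 231 ± 40.0 CPM in fasted and 167 ± 27.6 CPM in fed libraries (SD, n = 4 each). The targets with the smallest p among negative ones were Klf2, a factor of lymphocyte quiescence and trafficking, at 116 ± 27.3 CPM in fasted and 159 ± 37.7 CPM in fed libraries, and Eif4ebp1, an inhibitor of translation, at 44.3 ± 28.6 CPM in fasted and 62.0 ± 30.7 CPM in fed libraries. None of these passed, and without fasted libraries 1 and 3 the log2 fold changes were 0.51 for Map1lc3b, -0.34 for Klf2 and -0.06 for Eif4ebp1.

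**Figure D4:**
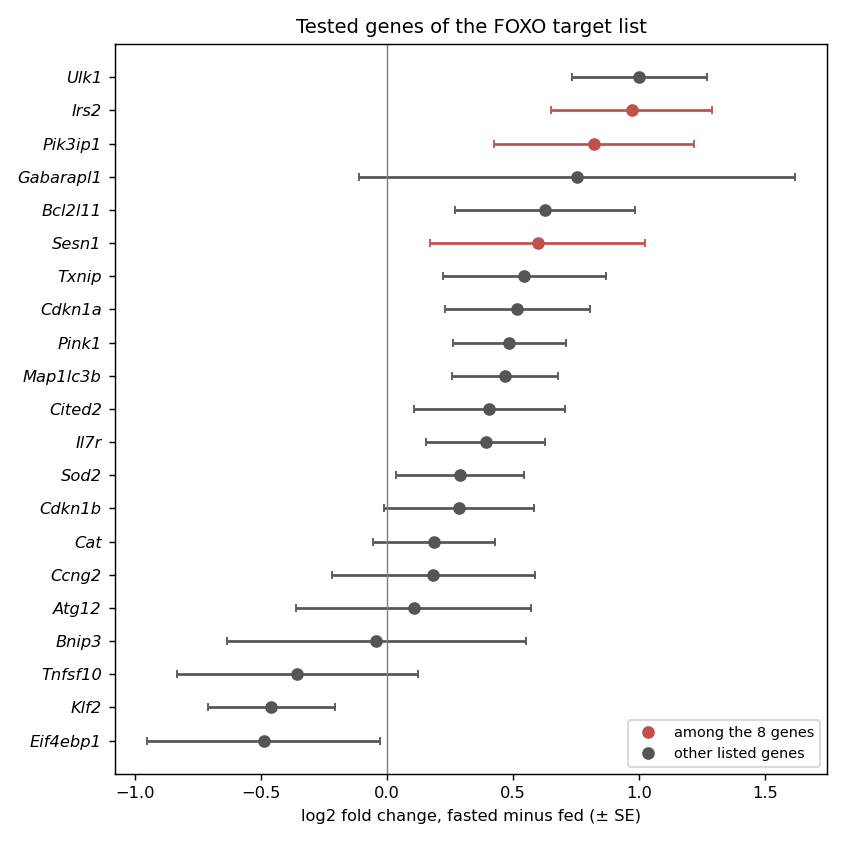
Log2 fold change (fasted minus fed, horizontal axis) ± SE of the 21 tested FOXO target genes, 1 gene per line, with members in red. The points of 17 genes lie right of 0 and those of 4 lie left of it, and none passed the adjusted threshold.

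Genes of the PI3K and AKT branch around Pik3ip1 were positive in 16 of 23 tested, with a median of 0.25, but in 9 of 25 and with a median of -0.05 without fasted libraries 1 and 3. Inpp5k, a phosphatase that acts on phosphoinositides made by PI3-kinase, had 29.7, 21.9, 12.7 and 12.9 CPM in fasted libraries 1, 3, 4 and 5, against 9.81, 5.41, 8.42 and 5.82 CPM in fed libraries 1, 3, 4 and 5. The groups did not overlap, with a log2 fold change of 1.39 ± 0.39 (SE; edgeR, unadjusted p = 0.0040, Benjamini-Hochberg adjusted p = 0.71), and the highest values were in fasted libraries 1 and 3. Without these it was 0.81 ± 0.47. The kinase genes Gsk3a and Gsk3b, whose products AKT inhibits, had log2 fold changes of 0.47 ± 0.27 and -0.66 ± 0.51, and the lipid phosphatase Inpp4a -0.99 ± 0.58. These were 0.22, -0.24 and -0.69 without fasted libraries 1 and 3.

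Genes that act next to the insulin receptor were positive in 6 of 17 tested, with a median of -0.15, and in 10 of 20 with a median of 0.02 without fasted libraries 1 and 3. The signalling adaptor Sh2b1 had a log2 fold change of 0.23 ± 0.34, the IGF2 receptor Igf2r 0.11 ± 0.42, the insulin-degrading enzyme Ide -0.60 ± 0.42 and the IGF-binding protein Igfbp4 -0.31 ± 0.31. In that setting they were -0.14, 0.33, -0.70 and -0.37. Irs1, the other main IRS adaptor, had 13 counts over the fasted and 41 counts over the fed libraries, 38 of these in fed library 4, too few to be tested. Irs1, Foxo4, Foxo6 and Sesn2 were singled out as relatives of members after the values had been seen.

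FOXO factors and their regulators were positive in 8 of 16 tested, with a median of -0.02, and in 9 of 18 with a median of 0.06 without fasted libraries 1 and 3. The deacetylase Sirt2 had a log2 fold change of 0.32 ± 0.25, the stress kinase Mapk8 0.59 ± 0.76 and Sgk1, a kinase that like AKT phosphorylates FOXO factors, -0.67 ± 0.48. Ywhah, a 14-3-3 protein of the family that holds phosphorylated FOXO in the cytoplasm, stood at 48.0 ± 5.60 CPM in fasted and 73.8 ± 18.3 CPM in fed libraries (SD, n = 4 each). Its groups did not overlap, and its log2 fold change was -0.62 ± 0.23 (SE; edgeR, unadjusted p = 0.022, Benjamini-Hochberg adjusted p = 1.00). It was -0.61 without fasted libraries 1 and 3, and those of Sirt2, Mapk8 and Sgk1 were 0.38, 0.84 and -0.01.

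Genes between the sestrins and mTORC1 were positive in 14 of 35 tested, with a median of -0.07, and in 13 of 42 with a median of -0.23 without fasted libraries 1 and 3. The AMPK subunit Prkab1 averaged 8.56 ± 1.12 CPM in fasted and 5.79 ± 1.33 CPM in fed libraries, and Lamtor2, a subunit of the Ragulator complex that anchors mTORC1 to lysosomes, 16.0 ± 3.41 CPM in fasted and 23.8 ± 1.98 CPM in fed libraries (SD, n = 4 each). Neither overlapped between groups and neither passed. Lamtor5, another Ragulator subunit, had a log2 fold change of 0.41 ± 0.29, and Sec13, a GATOR2 subunit, -0.54 ± 0.26. Without fasted libraries 1 and 3 the log2 fold changes were 0.66 for Prkab1, -0.36 for Lamtor2, 0.46 for Lamtor5 and -0.53 for Sec13. Groups did not overlap for 2 of 21 FOXO targets (Ulk1 and Il7r), 1 of 23 PI3K and AKT genes, 1 of 16 FOXO regulators, 2 of 35 sestrin and mTORC1 genes and 0 of 17 receptor-proximal genes, beside 3.52% of all genes tested. With library totals in place of TMM sizes the median over all genes was 0.51, and 79.9% of all tested genes were positive. In that setting 13 of 17 receptor-proximal, 21 of 23 PI3K and AKT and 13 of 16 FOXO regulator genes were positive. So were 17 of 21 FOXO target genes, near the share of all genes, and 25 of 35 sestrin and mTORC1 genes.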

How the data were processed

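Per the labels' protocols, Trizol was used to extract RNA and CEL-seq2 to make libraries. The submitters' processing notes name STAR, edgeR and the build mm10; their versions and roles were not part of the sources used here. The table deposited by the authors holds raw counts per gene, in whole numbers, and no source used here says whether a count is a read or a molecular identifier. Each of the 4 sequencing files holds both treatments, so a library's treatment was read from its column name. The table's columns outnumbered the files in each treatment, and 2 columns of per-sample values, the one numbered 2 in each treatment, were not used. The labels do not tie libraries to separate mice. The p-values therefore reflect the spread between libraries alone, and this may be technical. Any pair of libraries in a group had a chi-square per gene of at least 13.6, and all were kept as separate replicates.

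The members, gene lists and tests were chosen with earlier results of these data known. All 11 rows of ERCC spike-ins (20 counts in all) were left out. In R 4.3.3, edgeR 4.0.16 kept 7700 genes with filterByExpr, scaled libraries by TMM and compared fasted with fed by the robust quasi-likelihood test, two-sided, with Benjamini-Hochberg adjustment over all tested genes and a threshold of 0.05. The common biological coefficient of variation was 0.506. Members below the filter were compared on log2(CPM + 1), and ratios of members on log2 counts with 0.5 added, by an exact permutation over 70 assignments. Figures were drawn with matplotlib 3.10.9 in Python 3.11.15.

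The named genes are the members, up to 2 genes of smallest p in each direction from each pathway list, the 2 genes of highest correlation with each tested member (log2 CPM, prior count 2), and Gata3, Il7r and Cpa1. Alternatives were other scaling factors and filters, DESeq2 1.42.0, limma-voom (limma 3.58.1) with quality weights, a replicate block, an acinar covariate, removal of acinar and islet marker genes, each library left out, and fasted libraries 1 and 3 left out. Library sizes from ILC2 markers, and the refits of the named pathway genes under these settings, were chosen after seeing the data. Deviations from the group means correlated at 0.23, 0.14, 0.50 and 0.13 in the same-numbered pairs 1, 3, 4 and 5. In pairs of unlike number the correlations ran between -0.40 and 0.22. Fasted library 3 was closer to fed library 1 (0.20) than to fed library 3. Likewise fasted library 5 was closer to fed library 4 (0.22) than to fed library 5. The column numbers were taken to pair the libraries, but these correlations do not settle the pairing. What a number stands for is not labelled. The edgeR step was also run on simulated counts with known changes. The share of changes it recovered is not given here, so its power is not stated.

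Coordinates are from GENCODE vM21 on GRCm38 and promoter windows from RefSeq (GRCm38.p6), both the build mm10. Antisense or overlapping genes are annotated over Insr, Irs2, Foxo1, Sesn1 and Pik3ip1, none within 1000 bases of the 3′ end, where CEL-seq2 reads lie. No source used here says how counting used strand.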

Additional observations from a re-analysis of the deposited data

Results flagged for a closer look

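Foxo3 in fed library 4, at 0.887 CPM, stood above the measured CPM of the other 3 fed libraries, which held 1 count in all. Its gap to the nearest of them was 0.847 of the range of the fed group, above Dixon's 95% critical value for 4 samples. It was the 1 such case among 16 groups examined, and chance gives about 1 in 20 for each group. The counts of 0 in fed libraries 1 and 5 allow up to 1.34 and 1.03 CPM. Fed library 4 is therefore not shown to be above these libraries. Fed library 4 is the deepest, with 25252366 counts.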

How the results depend on the processing

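No alternative gave a member an adjusted p under 0.05. Irs2, Pik3ip1, Foxo1 and Sesn1 kept a positive sign in all 19 alternatives. With a library left out the log2 fold changes ran between 0.64 (without fasted library 1) and 1.15 for Irs2, between 0.55 and 1.17 for Pik3ip1, between 0.32 and 0.62 for Foxo1 and between 0.40 and 0.78 for Sesn1. Igf1r changed sign: it ran between -0.20 (without fasted library 4) and 0.67 with a library left out, and was -0.32 by limma-voom. Insr ran between -0.62 and 0.16 on the log2(CPM + 1) scale, above 0 without fasted library 1 or 3, and was 0.81 without both. Foxo3 ran between -0.24 and 0.066, above 0 without fed library 4, and the log2 ratio of Sesn1 over Sesn3 between -0.93 and 0.10, above 0 without fed library 1 or 5. Of the 20 other named pathway genes, Sh2b1 had -0.10 under the acinar covariate and -0.14 without fasted libraries 1 and 3, Igf2r ran between -0.17 and 0.47 with a library left out, and Igfbp4 was at 0.28 with library totals. The cause was not tested. With the replicate block the log2 fold change of Irs2 was 0.90 ± 0.22 (edgeR, unadjusted p = 0.0032, Benjamini-Hochberg adjusted p = 0.49). Irs2 ranked 46 of 7700 by p in that fit. No call changed with the block, and 535 of the 7700 genes had an unadjusted p under 0.05. The adjusted p of Irs2 ran between 0.477 and 1.00 over its alternatives. Over all genes DESeq2 called 12 higher and 5 lower, and library totals alone and the table without a filter each called 1 lower. Library totals alone gave 1.64 for Irs2, on a median of all genes of 0.51. Depth limits Insr, Foxo3 and Sesn3, with 40, 2 and 21 counts over the fasted and 57, 13 and 25 over the fed libraries.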
